A study of Mus musculus with 60 samples.

Results

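The regions described here were those listed as gained in KO at day 5 (+XAV) that appeared in none of the other 3 lists of regions changed in KO. They were chosen by position: of 1897 listed regions, the 224 that overlapped no row of the loss-loss, loss-gain or gain-gain lists by 1 bp or more. The lists come from the study's comparison of KO with WT, so KO and WT values of these regions are given as a description, without a test. All 1673 remaining rows were identical in start and end to a row of another list, 776 of them to a gain-gain row, 518 to a loss-gain row and 379 to a loss-loss row. The lists therefore draw on 1 set of region boundaries, no row overlapped another list in part, and the 1 bp limit decided no case. Closest to the limit on the inside were a region without a promoter on chromosome X (137110316 to 137116307), 610 bp from a row of another list, one on chromosome 5 at 1170 bp and the region at Igf2 at 1208 bp. On the outside, the shortest rows shared with another list were those at Ptchd4 (1916 bp), Stard13 (2263 bp) and Acot6 (2478 bp), each shared over its whole length.

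H3K27me3 is the trimethyl mark that Polycomb repressive complex 2 places on histone H3, mostly over CpG-rich promoters of developmental regulators that are silent or poised. In embryonic stem cells many such promoters also carry an activating mark and are called bivalent, and upon differentiation the mark is kept or extended where a lineage is closed and removed where a gene is switched on. TET1 oxidises 5-methylcytosine, binds CpG-rich promoters and also has roles that do not need its enzyme activity. XAV939 (XAV) inhibits tankyrases, stabilises AXIN and thereby blocks Wnt signalling through β-catenin, which otherwise favours primitive streak and posterior fates over forebrain.

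The mark was mapped by CUT&RUN, where a nuclease tethered to the antibody releases the bound chromatin for sequencing, in mouse embryonic stem cells (day 0) on the way to anterior neural progenitor cells (antNPCs) at days 2, 3 and 5, and at day 5 with 5 µM XAV from day 2. All lines are labelled with the B6129S6F1 Tet1 tm1Koh background. KO1 and KO15 are male lines derived from blastocysts, and MUT lines are clones of the wild-type line WT7 in which Cas9 and homology-directed repair made TET1 catalytically inactive. The study also made mock-transfected wild-type clones beside the MUT clones, and whether WT70 and WT72 are such clones is not given in the sources used here. Each genotype had 2 lines at each of 5 time points, and each line at a time point is 1 library. KO15 was paired with KO25 at days 0 and 2 and with KO1 from day 3, and CM59 with CM40 and then CM69, so a change from day 2 to day 3 in KO or MUT includes a change of line. Bulk libraries cannot tell a mark in fewer cells from a weaker mark in every cell.

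A library was said to call a region when at least 1 of its peaks overlapped the region by 1 bp, and the covered percent is the share of the region's length under peaks. Of the 224 regions, 198 (88.4%) lay within 1.5 kb of a protein-coding start, and they are named by those genes, 226 in all. The promoters printed next were picked to cover the range of behaviour of the regions. Tdgf1, Dach1, Trim2 and Vim were called at day 5 (+XAV) in both KO lines and at day 5 without XAV in no library, Snx22 was called in both KO lines and neither WT line with and without XAV, Neurod2, Nkx2-3 and Cbx8 were called in all 30 libraries, and Etv5 in 2. Each is the 250 bases before the RefSeq start, 5′ to 3′ on the gene's strand in build GRCm38.p6, with CpG dinucleotides in capitals.
Tdgf1 (chr9:110946159-110946408, minus strand): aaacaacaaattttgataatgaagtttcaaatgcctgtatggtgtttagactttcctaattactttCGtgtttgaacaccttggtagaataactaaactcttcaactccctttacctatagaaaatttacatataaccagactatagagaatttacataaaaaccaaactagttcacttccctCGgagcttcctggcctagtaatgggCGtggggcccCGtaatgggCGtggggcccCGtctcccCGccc
Dach1 (chr14:98169766-98170015, minus strand): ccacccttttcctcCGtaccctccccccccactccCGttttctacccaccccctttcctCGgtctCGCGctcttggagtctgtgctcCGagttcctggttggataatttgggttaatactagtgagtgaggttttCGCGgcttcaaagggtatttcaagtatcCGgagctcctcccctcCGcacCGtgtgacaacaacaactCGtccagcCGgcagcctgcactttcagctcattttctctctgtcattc
Trim2 (chr3:84259780-84260029, minus strand): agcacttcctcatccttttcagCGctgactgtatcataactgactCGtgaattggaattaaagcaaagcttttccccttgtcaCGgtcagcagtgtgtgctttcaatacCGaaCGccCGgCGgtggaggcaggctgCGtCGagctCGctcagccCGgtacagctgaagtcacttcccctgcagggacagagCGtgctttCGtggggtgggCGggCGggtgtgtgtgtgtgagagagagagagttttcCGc
Vim (chr2:13574061-13574310, plus strand): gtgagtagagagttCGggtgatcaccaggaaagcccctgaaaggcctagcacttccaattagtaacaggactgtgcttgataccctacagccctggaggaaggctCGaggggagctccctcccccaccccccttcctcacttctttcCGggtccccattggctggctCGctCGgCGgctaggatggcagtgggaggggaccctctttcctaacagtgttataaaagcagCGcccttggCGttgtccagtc
Snx22 (chr9:66069760-66070009, minus strand): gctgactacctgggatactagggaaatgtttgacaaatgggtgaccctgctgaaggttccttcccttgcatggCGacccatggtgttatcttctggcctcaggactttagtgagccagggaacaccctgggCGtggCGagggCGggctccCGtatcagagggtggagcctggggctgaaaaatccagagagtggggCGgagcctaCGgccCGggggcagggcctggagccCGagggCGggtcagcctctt
Neurod2 (chr11:98329646-98329895, minus strand): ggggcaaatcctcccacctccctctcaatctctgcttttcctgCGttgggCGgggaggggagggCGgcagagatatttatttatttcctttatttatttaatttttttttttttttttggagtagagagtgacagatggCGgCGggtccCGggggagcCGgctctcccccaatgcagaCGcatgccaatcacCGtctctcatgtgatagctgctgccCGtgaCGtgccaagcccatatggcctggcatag
Nkx2-3 (chr19:43612075-43612324, plus strand): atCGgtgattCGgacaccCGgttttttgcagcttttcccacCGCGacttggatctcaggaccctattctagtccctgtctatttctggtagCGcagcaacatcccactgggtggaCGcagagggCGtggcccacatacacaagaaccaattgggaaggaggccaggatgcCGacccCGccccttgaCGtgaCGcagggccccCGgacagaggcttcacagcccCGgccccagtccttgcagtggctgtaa
Cbx8 (chr11:119040914-119041163, minus strand): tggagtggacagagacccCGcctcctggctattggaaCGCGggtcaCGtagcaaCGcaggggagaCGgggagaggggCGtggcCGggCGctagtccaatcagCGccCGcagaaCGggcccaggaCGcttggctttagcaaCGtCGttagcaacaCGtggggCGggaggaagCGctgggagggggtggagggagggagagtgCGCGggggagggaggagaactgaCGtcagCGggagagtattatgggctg
Etv5 (chr16:22439571-22439820, minus strand): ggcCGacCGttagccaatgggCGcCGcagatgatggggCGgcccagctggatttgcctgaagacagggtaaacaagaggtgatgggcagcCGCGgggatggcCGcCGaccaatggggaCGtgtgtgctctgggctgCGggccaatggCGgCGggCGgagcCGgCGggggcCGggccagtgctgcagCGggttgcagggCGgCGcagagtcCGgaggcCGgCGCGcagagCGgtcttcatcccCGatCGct
These stretches held 7 CpG at Tdgf1, 13 at Dach1, 16 at Trim2, 8 at Vim and 10 at Snx22, against 11 at Neurod2, 14 at Nkx2-3 and 22 at Cbx8. Etv5, called in the fewest libraries of those shown, had 27. CpG number did not order these promoters by how often they were called.

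The 30 libraries had between 704 and 3466 peaks (median 1789). At day 5 (+XAV) CM59 had 704, against 1407 to 2461 in the other 5. Read depth is unknown from peak files, so no counting interval is given. The number of peaks moved with the share of regions called, and its part in each value was not tested beyond the settings named below.

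In the contrast that chose them, at day 5 (+XAV), KO1 called 62.1% of the regions and KO15 81.7%, against 42.9% for WT70 and 49.1% for WT72. Without XAV at day 5 the shares were 44.6% in KO1, 58.0% in KO15, 40.6% in WT70 and 44.6% in WT72. KO was thus 25.9 points above WT with XAV and 8.71 points above without it, and without XAV the lower KO line and the higher WT line called the same number of regions. The 1673 regions that were also in another list had KO minus WT differences of 29.5 and 35.1 points at the same 2 conditions, and the 3605 other merged regions 15.7 and 28.1 points. Regions listed for a change at days 0 to 5 were left out by the rule. With peak numbers made equal at that time point, the difference without XAV was -6.47 points.

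**Figure D1:**
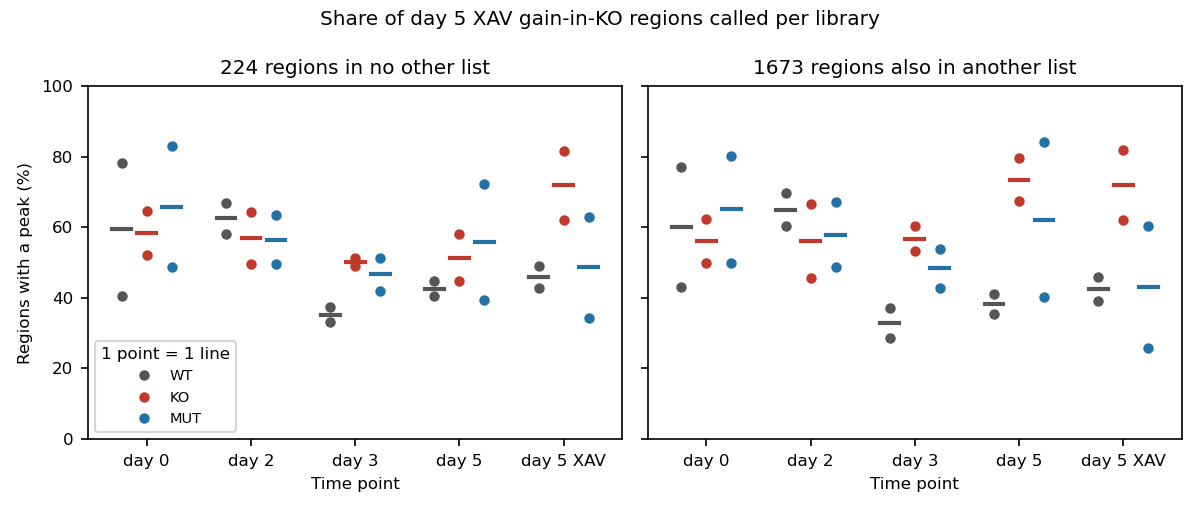
Each point is a cell line and each bar the mean of its genotype; the vertical axis gives the share of regions with a peak (%) and the horizontal axis the time point, for the 224 regions (left) and the 1673 rows shared with another list (right). At day 5 without XAV the KO mean lies 8.71 points above WT on the left and 35.1 points on the right.

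The KO and WT lines overlapped at days 0 and 2 and did not at day 3. At day 0 the share was 58.5% ± 8.84 in KO and 59.4% ± 26.5 in WT (mean ± SD, n = 2 lines), where WT70 (40.6%) and WT72 (78.1%) lay on either side of both KO lines. Day 2 gave 56.9% ± 10.4 in KO and 62.5% ± 6.31 in WT, with 3 regions (1.34%, beside 2.9% of all 3829 regions) called in both WT lines and neither KO line. At day 3 both KO lines (51.3% and 49.1%) were above both WT lines (33.0% and 37.5%), and 24 regions (10.7%, beside 11.3% of all) were called in both KO lines and neither WT line. MUT lines called 65.8% ± 24.3 of the regions as stem cells, 56.5% ± 9.79 at day 2 and 46.7% ± 6.63 at day 3. On day 5 they called 55.8% ± 23.4 without XAV and 48.7% ± 20.2 with it. Only at day 3 did both MUT lines (51.3% and 42.0%) lie above both WT lines.

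The label "gained only under XAV" was set beside the peak calls, a different measure from the study's comparison of reads in DiffBind. At day 5 (+XAV), 91 regions were called in both lines of KO and WT, 40 in none of these 4 libraries, 24 in both KO lines and 1 WT line, 46 in 1 KO line alone and 23 in both KO lines and neither WT line. Those 23 are 10.3% of the regions, beside 7.55% of all 3829 regions tested. The reverse pattern had 0 regions, beside 0.418% of all. Of the 46 called in a single KO line, 45 were called in KO15 and not in KO1. Leaving out KO1 accordingly raised the count with KO and without WT peaks from 23 to 68, leaving out WT72 gave 42, and an equal number of peaks in all 6 libraries gave 9. At day 5 without XAV 7 regions (3.13%) were called in both KO lines and neither WT line, beside 19.7% of all regions. The rule left out regions listed for a change at days 0 to 5, and all 3829 include them. The choice itself thus lowers this share.

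Of these 23 regions, 20 had been called in at least 1 library at day 0 or day 2. Early calls were common everywhere: only 19 of the 224 regions (8.48%) and 431 of all 3829 (11.3%) had no peak at days 0 and 2. At day 5 without XAV, 5 of the 23 were called in both KO lines, 8 in 1 KO line and 10 in no KO line. The share of this split over all regions was not counted. By peak calls alone, 7 regions had both KO lines and neither WT line called at day 5 (+XAV) and no library of any genotype at day 5. The share of this pattern over all regions was not counted. Most regions did not meet this pattern, but a gain in reads needs no change from no peak to a peak. The calls therefore do not test the label, and the 224 are called here the regions of the list.

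**Figure D2:**
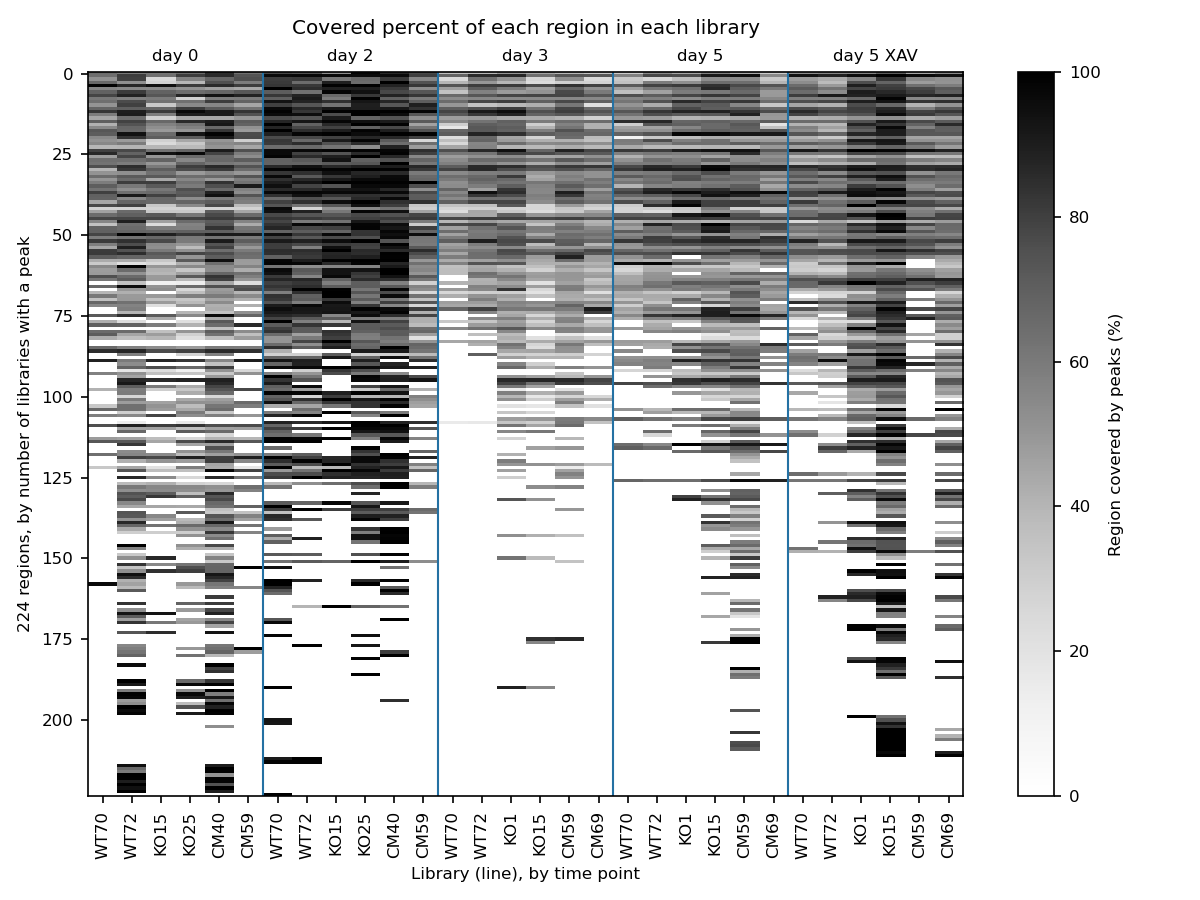
Percent of each of the 224 regions (rows) covered by peaks in each of the 30 libraries (columns), ordered from regions called in all libraries at the top to those called in the fewest at the bottom, with white for no peak. The upper rows are marked in every library, and in the lower rows the marked libraries are mostly KO15 at day 5 (+XAV) and, at day 0, WT72 and CM40.

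The 7 regions with a peak in both KO lines under XAV and in no library at day 5 lay at Glra1, Tdgf1, Dach1, Trim2, Perp and Vim and at the region without a promoter on chromosome X. These values chose the regions and are descriptive. At Tdgf1 (chromosome 9, 110945141 to 110948621), which encodes Cripto, a Nodal coreceptor active in pluripotent cells and primitive streak, peaks covered 92.8% of the region in KO1, 97.7% in KO15 and 94.3% in CM69 at day 5 (+XAV), and no other library had a peak. Glra1 (chromosome 11, 55603197 to 55610557), a glycine receptor subunit of inhibitory synapses, was covered at 99.3% in KO1, 96.2% in KO15 and 65.7% in CM69 and elsewhere only in CM40 at day 0 (44.9%). Both had marked KO lines and 1 marked MUT line at day 5 (+XAV), while WT70, WT72 and CM59 had no peak.

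Dach1 (chromosome 14, 98165776 to 98170350), a transcriptional corepressor of retina and limb development, was covered at 99.2% in KO1 and 94.6% in KO15 at day 5 (+XAV) and in none of the 4 other libraries. At day 0 it was covered at 52.0% in WT72, 84.3% in KO15, 80.2% in KO25 and 67.7% in CM40, so in KO a peak was called in stem cells, in no library of days 2 to 5 without XAV, and again with XAV. Trim2 (chromosome 3, 84256575 to 84261804), a ubiquitin ligase of neurons, was covered at 84.4% in KO1, 87.3% in KO15 and 55.5% in CM69 with XAV. It was covered at day 2 in WT70 (43.3%), WT72 (89.0%), KO25 (94.1%) and CM40 (98.7%). WT70 and WT72 had no peak there at any later time.

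Vim (chromosome 2, 13570192 to 13576867), an intermediate filament of mesenchyme and neural progenitors, was covered at 75.8% in KO1 and 77.9% in KO15 under XAV, and at Perp (chromosome 10, 18842455 to 18847615), a desmosome component of epithelia, the values were 75.8% and 98.5%. No WT or MUT library had a peak at either gene at day 5 (+XAV). Perp was otherwise covered only in KO25 at day 2 (99.1%), and Vim in WT72 at day 0 (71.6%) and in WT70 (73.9%) and CM40 (98.8%) at day 2.

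With both KO lines and neither WT line called with and without XAV there were 3 regions, of which those at Smpd3 and Snx22 are described. The share of this double pattern over all regions was not counted. Smpd3 (chromosome 8, 106334222 to 106338600), a neutral sphingomyelinase, was covered at day 5 at 84.2% in KO1 and 88.9% in KO15 and under XAV at 90.1% and 91.0%. Snx22 (chromosome 9, 66067208 to 66071006), a sorting nexin, was covered at 88.7% and 83.3% without and at 69.6% and 95.9% with XAV. CM59 at day 5 and CM69 at day 5 (+XAV) were covered at both genes as well, while WT70 and WT72 had no peak there at either condition. Both regions are in none of the lists made without XAV although their calls in KO and WT were the same with and without XAV.

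**Figure D3:**
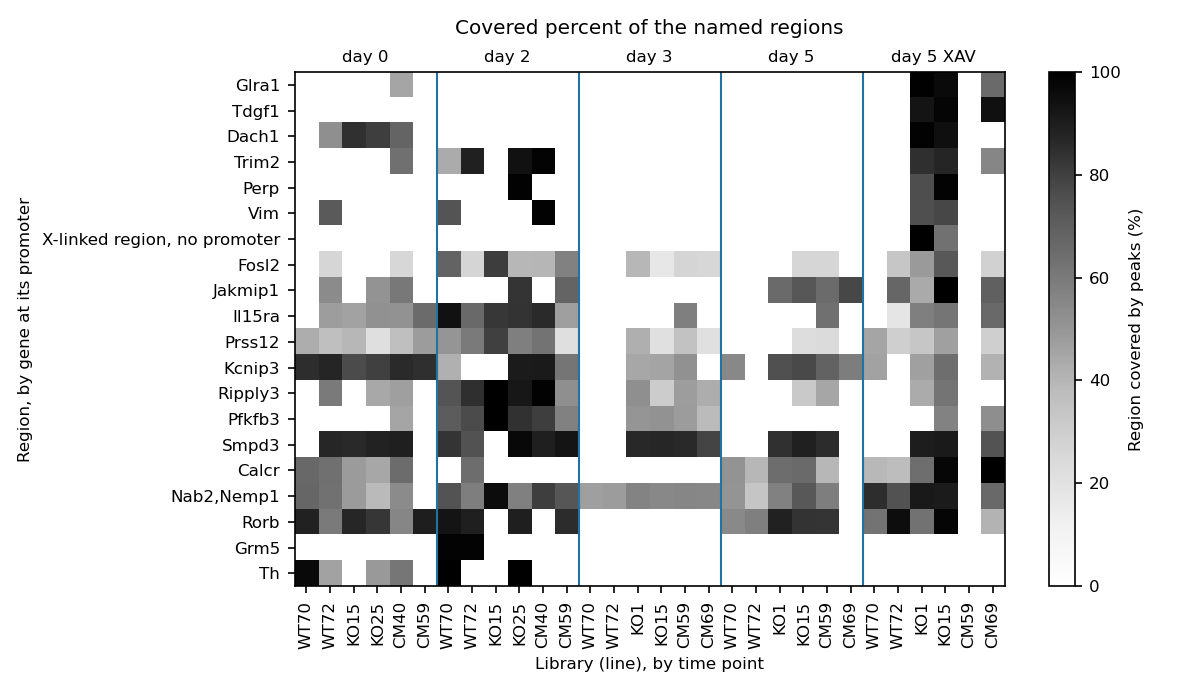
Percent covered by peaks (grey scale) in 30 libraries (columns) for the 7 regions called under XAV in KO and in no library at day 5 (Glra1 to the region on chromosome X) and for those with the largest differences in calls between MUT and WT without XAV (Fosl2 to Th). The first 7 rows are white throughout day 5 and dark in KO1 and KO15 at day 5 (+XAV).

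XAV was compared with no XAV line by line, since the same lines were sampled in both conditions from day 3 on. The share of the 224 regions called was higher with XAV by 17.4 points in KO1 and 23.7 points in KO15. In WT70 the number called went from 91 to 96 and in WT72 from 100 to 110. It was 37.9 points lower in CM59 (72.3% and 34.4%) and 23.7 points higher in CM69 (39.3% and 62.9%). All 4 KO and WT lines moved in 1 direction. The KO and WT values at both conditions served the rule, so their courses here and in the shared regions are a description. The MUT lines moved in opposite directions, as did their numbers of peaks (2847 and 704 in CM59, 1191 and 1924 in CM69). For the regions shared with another list the shares without and with XAV were 67.3% and 62.0% in KO1 and 79.5% and 81.8% in KO15.

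**Figure D4:**
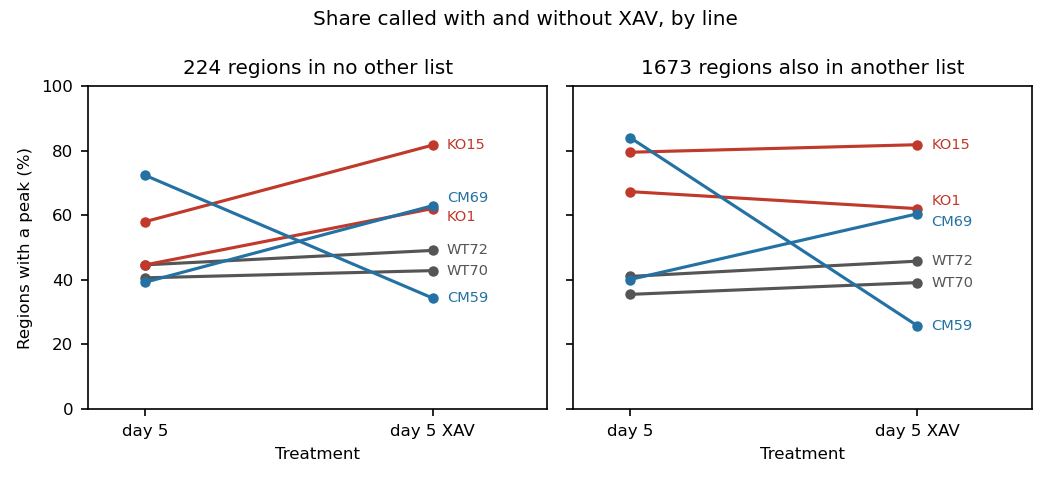
Share of regions called (vertical axis, %) at day 5 without and with XAV (horizontal axis) in the 6 lines, for the 224 regions (left) and the 1673 shared with another list (right). On the left KO1 and KO15 are 17.4 and 23.7 points higher with XAV, and CM59 and CM69 move in opposite directions in both panels. The KO and WT values at both conditions served the choice of regions.

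The lists compare KO with WT, so tests were possible on the MUT libraries. A limit is that the WT libraries of days 0 to 5 served the 3 lists that were left out. Those of day 5 (+XAV) served the choice itself, so MUT values beside WT there are a description. Whether MUT peaks entered the set of region boundaries is not given in the sources used here. The first test asked whether catalytic inactivation alone changed the mark at these regions in days 0 to 5 without XAV (8 MUT and 8 WT libraries). In limma on the arcsine square root of the covered fraction, 0 of the 199 regions with peaks in at least 2 of the libraries passed an adjusted p of 0.05, beside 0% higher and 0% lower of all 3271 regions tested. At an unadjusted p under 0.05 there were 3, all higher in MUT, and 120 of all regions. An exact conditional test on presence of a peak, stratified by time, found 0 of the 199 at an unadjusted p under 0.05 and 8 of all regions. Its lowest p over the 199 was 0.167. With 2 lines per group it could reach a low p only where calls differed at several time points. It could show no difference at the 57 regions called in all 30 libraries, so this 0 adds little. The median coefficient was 0.03 over these regions and 0.03 over all.

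The 3 were Kcnip3, Id3 and Nkd1. Kcnip3, a calcium-binding partner of potassium channels, was covered at 0 to 90.7% in MUT (median 65.0%) and 0 to 87.4% in WT (median 20.8%), and was at 0 in 1 MUT and 4 WT libraries. Its difference was 0.41 on the arcsine scale with a standard error of 0.16 (limma adjusted p = 1), and 0.124 with an equal number of peaks per library. Id3, an inhibitor of basic helix-loop-helix factors induced by BMP, was covered at a mean of 39.8% ± 33.4 in MUT and 23.1% ± 26.1 in WT. The SD is over 8 libraries each, in which lines were sampled repeatedly. Nkd1, a feedback antagonist of Wnt signalling, was covered at 41.3% ± 37.1 in MUT and 15.4% ± 28.6 in WT. The groups overlapped at all 3, and none is shown to differ.

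By number of libraries the largest difference towards MUT was 3 of 8, at 12 regions. Of these the rule names Fosl2, Jakmip1, Il15ra, Prss12, Kcnip3, Ripply3, Pfkfb3 and Smpd3. The share of such differences over all regions was not counted, so they are not shown to be particular to this list. MUT minus WT shares called at days 0, 2, 3 and 5 were 6.47, -6.03, 11.4 and 13.2 points over the regions of the list. In the other merged regions they were 4.05, -6.96, 10.6 and 17.1 points. Smpd3 was called in 6 MUT and 3 WT libraries and covered at 65.2% ± 40.4 and 30.6% ± 42.3 (coefficient 0.48, SE 0.23, limma adjusted p = 1). Jakmip1, a neuronal microtubule-associated protein, was called in 4 and 1 libraries and covered at 33.9% ± 36.6 and 6.70% ± 19.0. Fosl2, an AP-1 subunit, Il15ra, an interleukin receptor chain, and Ripply3, a repressor partner of T-box factors, were each called in 6 MUT and 3 WT libraries. Towards WT the largest difference was that of Calcr, the calcitonin receptor, called in 2 MUT and 5 WT libraries and covered at 13.1% ± 25.2 and 35.6% ± 30.8 (coefficient -0.33, SE 0.16, limma adjusted p = 1). With an equal number of peaks per library the coefficient at Calcr was -0.00194. Nab2 and Nemp1, which share a region, the nuclear receptor gene Rorb, the glutamate receptor gene Grm5 and the shorter region at Th were among the 5 regions that followed with 2 libraries. Grm5 was covered in WT70 and WT72 at day 2 (98.6% and 98.6%) and in no other of the 30 libraries.

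At single time points, both MUT lines and neither WT line were called at 11 regions at day 3 (4.91%, beside 4.99% of all regions), at 1 at day 5 (0.446%, beside 2.04%) and at 0 at day 5 (+XAV), beside 0.104%. Of the 23 regions called in both KO lines and neither WT line at day 5 (+XAV), 14 were called in CM69, 0 in CM59 and 9 in neither MUT line. At that condition CM69 had 1924 peaks and called 45.4% of the other merged regions, CM59 704 and 16.3%. The same split over all regions with this KO pattern was not counted. In both KO lines and neither MUT line there were 10 (4.46%, beside 3.58% of all).

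The second test compared XAV with no XAV in the MUT lines. In limma over the 12 libraries of day 5, 0 of 175 regions passed, beside 0.187% of 2670 regions higher and 0.375% lower. With the cell line as a block, which pairs the samples, those 15 calls among all regions fell to 0, and the 175 again gave 0. Both fits took the spread from all 12 libraries, of which 8 are KO and WT libraries that served the rule. The standard errors are therefore not free of the choice. At an unadjusted p under 0.05 there were 6, of which 1 was higher with XAV, and 146 of all regions. The lowest adjusted p was 0.284, at Cpne5, a copine of neurons, which was covered at 63.0% in CM59 and 59.6% in CM69 without XAV and in neither with it (coefficient -0.90, SE 0.20). Ebf1, a transcription factor of neuronal differentiation, was next, at 60.2% and 59.5% without and 89.7% and 87.6% with XAV (limma adjusted p = 0.382). CM59 and CM69 had the same direction at both genes, unlike over the regions as a whole. With 1 MUT line left out, 1 library per condition remained in MUT, so only median coefficients are given. Without CM59 the median was 0.123 over the regions, beside 0.000899 over all regions tested. Without CM69 it was -0.253, beside -0.707 over all. The direction therefore depends on which line is read, and over all regions the values moved as well.

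Many of the regions were marked throughout. In all 30 libraries 57 regions (25.4%) were called, beside 18.5% of the rows shared with another list and 10.6% of the other merged regions, and a further 64 (28.6%) were called in 5 libraries or fewer, beside 20.6% of the shared rows and 35.6% of the other merged regions. The first were wide, with a median of 19.8 kb, and the second narrow, with 4.81 kb. A peak call cannot show a change where a peak is always present, but the covered percent can. Over the 57 regions the median covered percent at day 5 (+XAV) was 76.6% in KO1 and 86.6% in KO15, 63.8% in WT70 and 60.6% in WT72, and 64.8% in CM59 and 65.0% in CM69. Without XAV it was 68.6% and 69.6% in KO, 57.7% and 65.0% in WT, and 70.1% and 60.2% in MUT.

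**Figure D5:**
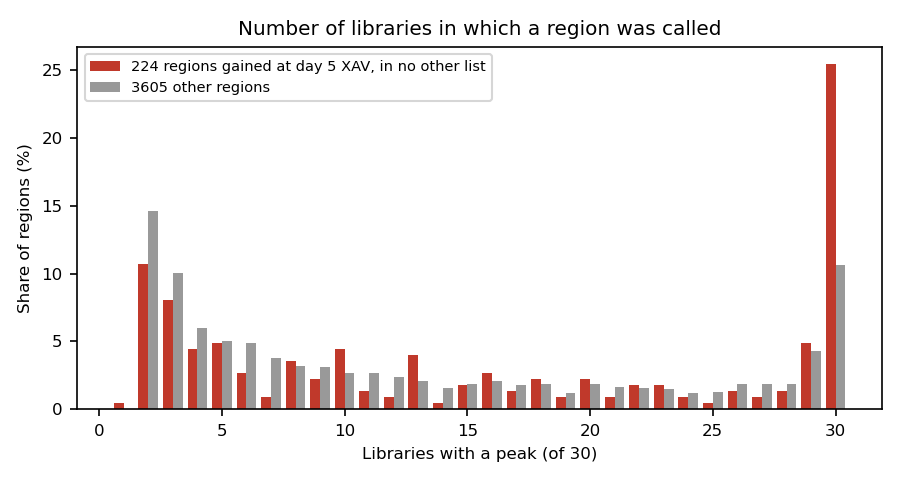
Share of regions (vertical axis, %) by the number of libraries, of 30, in which they were called (horizontal axis), for the 224 regions and the 3605 other merged regions. In all 30 libraries 25.4% of the regions were called, against 10.6% of the other merged regions, and in 5 or fewer 28.6% against 35.6%.

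Counted over all 224 regions, both KO lines were above both WT lines in covered percent at 118 (52.7%, beside 33.2% of all regions) at day 5 (+XAV). Both KO lines were below both WT lines at 0, beside 1.04% of all regions. KO against WT at day 5 (+XAV) is the contrast that chose the regions. Without XAV both KO lines were above both WT lines at 55 (24.6%, beside 37.2%), a share that the choice lowers, since the rule left out regions listed for a change at days 0 to 5. MUT lines were not part of the KO against WT contrast, but the WT libraries were, so MUT beside WT is a description as well. Both MUT lines were above both WT lines at 31 (13.8%, beside 8.59%) at day 5 (+XAV) and at 34 (15.2%, beside 13.3%) without XAV. Within libraries, peaks over the regions ranked at a median percentile of 56.4 to 76.6 of total signal, and over the 57 always-marked regions at 78.7 to 95.2.

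The always-marked regions held classic Polycomb targets. The widest were the HoxC cluster (chromosome 15, 102902293 to 103045620, 9 Hox genes) and the HoxB cluster (chromosome 11, 96241877 to 96378850, 9 Hox genes), which specify position along the body axis. HoxC was covered at 99.6% and 98.1% in KO, 91.9% and 82.8% in WT and 94.9% and 88.3% in MUT at day 5 (+XAV). HoxB was covered at 89.5% and 93.0% in KO, 76.1% and 78.4% in WT and 82.9% and 84.2% in MUT. At both clusters the KO lines were highest, with MUT between KO and WT except that CM69 lay within the WT range at HoxC. Cbx8, a Polycomb subunit that binds the mark, was covered at 79.9% and 89.6% in KO and 85.9% and 78.5% in WT, where the genotypes overlapped. Nkx2-3, a homeobox gene of gut and spleen, was covered at 90.2% and 89.9% in KO and 85.6% and 82.6% in WT. Neurod2, a neuronal differentiation factor, was covered at 80.1% and 86.6% in KO and 76.8% and 72.9% in WT. At these last 2 genes both KO lines lay above both WT lines.

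Lineage regulators in this class differed in how KO compared with WT at day 5 (+XAV). Gata4, a mesendoderm factor, was covered at 91.2% in KO1 and 92.4% in KO15, against 47.9% and 51.6% in WT and 51.0% and 50.9% in MUT. Shh, the ventral midline morphogen, was covered at 80.5% and 74.1% in KO, against 53.3% and 55.5% in WT and 52.6% and 65.0% in MUT. Wnt5a, a ligand of non-canonical Wnt signalling, was covered at 58.6% and 69.3% in KO, against 40.6% and 31.5% in WT and 45.4% and 45.0% in MUT. At these 3 genes both KO lines lay above all 4 other libraries. Emx1, a dorsal telencephalon factor, was covered at 74.4% in KO1 and 98.6% in KO15, against 79.5% and 78.9% in WT, so the KO lines lay on either side of WT. Rax, an eye field and hypothalamus factor, was covered at 42.2% and 62.0% in KO and 36.2% and 40.3% in WT.

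Gene lists were counted for description. Of 226 genes at the regions, 73 were in at least 1 of 18 lists. Hox genes gave 18 of the 39 at any tested region, all in the 2 clusters. Neurogenic and neuronal transcription factors gave 9 of 51 (Bhlhe22, Dlx1, Dlx2, Ebf1, Isl2, Mnx1, Neurod2, Neurog3 and Onecut3), of which 7 were called in all 30 libraries. Neuroectoderm and forebrain regulators gave 5 of 58 (Barhl2, Dmrta1, Emx1, Msx2 and Rax), primitive streak and mesoderm 3 of 35 (Foxf1, Gata4 and Osr1, all in 30 libraries), endoderm 3 of 13 (Cpm, Cxcr4 and Pdx1) and pluripotency 2 of 15 (Klf5 and Tdgf1). All 226 genes compare with 3220 at any tested region.

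Signalling lists had few members. The Wnt pathway gave 2 of 47 (Nkd1 and Wnt5a), FGF and hedgehog signalling 2 of 26 (Fgf14 and Shh), and BMP, Nodal and TGF-beta signalling 1 of 37 (Id3). For effector genes of neurons the counts were 10 of 113 axon guidance and adhesion genes, 9 of 81 neurotransmitter receptor genes, 4 of 90 ion channel genes and 3 of 51 synapse genes. Of the receptor genes, 0 were called in all 30 libraries. Fox factors gave 3 of 24, Sox factors 0 of 14, orphan and peptide receptors 0 of 44, germline genes 0 of 1 and housekeeping genes 0 of 0.

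Dmrta1, a forebrain patterning factor, was covered under XAV at 93.8% in KO1, 94.5% in KO15, 50.5% in WT72 and 52.7% in CM69. Klf5, a Krüppel-like factor of stem cells and epithelia, was covered under XAV at 100.0% in KO1, 59.3% in KO15 and 70.2% in CM69, and otherwise only in CM59 at day 5 (49.9%). Cpm, a carboxypeptidase, was covered under XAV at 82.1% in KO1, 88.1% in KO15 and 43.3% in CM69 and in neither WT line. At these 3 genes CM69 had a peak with the KO lines and CM59 had none.

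Some regions differed with time in all genotypes, and these were singled out after their values were seen. Called in no library at days 0 and 2 and in at least 6 of the 12 libraries of day 5 with or without XAV were 3 regions (1.34%, beside 2.06% of all), at Ltc4s, Etv4 and Esrp2. Esrp2, an epithelial splicing regulator, was called in all 12 and in the KO and MUT lines, but neither WT line, at day 3. Etv4, an ETS factor induced by FGF signalling, was covered under XAV at 80.4% and 95.7% in KO, 41.5% and 41.0% in WT and 58.8% and 74.6% in MUT, and without XAV in KO15 (29.5%) and CM59 (65.3%) alone. Etv4 was thus called in all 6 libraries with XAV, WT included, and in 2 without it. Ltc4s, leukotriene C4 synthase, was called in 11 of the 12.

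The opposite course, at least 6 libraries at days 0 and 2 and none at day 5, was taken by 8 regions (3.57%, beside 4.28%). They lay at Cxcr4, Parp8, Foxp1, Nkd1 and Th, which had 2 of them, with 2 at no promoter. The longer region at Th, the tyrosine hydroxylase gene, was called in all 12 early libraries. Cxcr4, a chemokine receptor of migrating mesendoderm, was called in 10 and Parp8, a PARP family enzyme, in 11. By that choice none of the 8 had a peak in any KO library at day 5 (+XAV). The study's list holds them as gained in KO there, from a comparison of reads, which needs no called peak. In all, 36 regions (16.1%, beside 24.2% of all) had no peak in any of the 12 libraries of day 5.

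The regions resembled those shared with another list in sequence. Median width was 8033 bp (quartiles 5562 and 13295 bp) against 8209 bp, GC content 50.1% against 49.4%, and observed over expected CpG 0.41 against 0.39. Regions in no list (n = 648) were narrower (5534 bp), less often at a promoter (58.6%, against 88.4% here and 86.1% in the shared rows) and had a ratio of 0.34. The regions lay a median of 213 kb from the nearest row of another list (quartiles 82.9 and 627 kb), 10 within 10 kb and 33 beyond 1 Mb.

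Promoter windows of RefSeq, 250 bases before to 50 after a start, were searched for the TCF/LEF letters CTTTGAA and CTTTGAT on both strands. Of the 248 windows over the regions, 14 (5.65%) held either, against 5.12% over the shared rows, 5.07% over all tested regions and 8.65% of all 32851 windows. CTTTGAA stood in 9 and CTTTGAT in 6, with 1 window, that of Dach1, holding both. The windows of Tdgf1, Trim2 and Vim held neither, and Glra1 and Perp had no window in the table. The windows held a median of 18 CpG, against 21 over the shared rows and 7 over all windows.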

How the data were processed

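The authors ran Trim Galore on paired-end reads and Bowtie (local mode) against GRCm38.p6 (mm10), removed duplicates with Picard, called peaks per library with SEACR in stringent mode against IgG and compared KO with WT in DiffBind 3.0.15 (R 4.0.5). The deposited peaks carry a signal, the authors' unscaled sum of fragment coverage, which served here for ranks inside 1 library alone. The deposited lists of changed regions give positions alone. Peaks of 30 H3K27me3 libraries were merged into 4512 regions, of which 3828 had peaks in at least 2 libraries. Those overlapping none of the 224 regions, with the 224, gave 3829 regions. Starts were those of GENCODE M21. Covered fractions, on the arcsine square root scale, were fitted in limma 3.58.1 (R 4.3.3), with time as covariate or 1 mean per genotype and treatment, and adjusted by the Benjamini-Hochberg method over all regions tested. Libraries of a line at different days were treated as separate. For MUT against WT, p-values measure the spread between libraries left after time point and genotype. WT70 and WT72 gave all 8 WT libraries, and CM40, CM59 and CM69 all 8 MUT libraries, so these are repeated samples of few lines. For XAV in MUT, p-values of the main fit measure the spread between lines of a genotype at 1 condition. Fits were tested on simulated data. Of 200 regions shifted by 0.4 on the arcsine scale, 19% were recovered for MUT against WT and 0.5% for XAV in MUT. Of those shifted by 0.8, 75.5% and 30% were recovered. The simulated noise was independent between libraries, without shifts in peak number or line effects, and only regions of intermediate coverage were shifted. For MUT against WT 3694 simulated regions were tested, against 3271 in the data. The rates therefore hold for that setting and not for the real fits. For XAV, lines pair the samples, and deviations of lines correlated at 0.068 in WT, 0.144 in KO and -0.225 in MUT. Python 3.11.15, NumPy 2.4.6, pandas 2.3.3, samtools 1.23.1 and pysam 0.24.0 were used. One region that the naming rule picked is not reported here. Members, gene lists and tests were chosen with earlier results of these data known. Genes were named by the extremes of KO, MUT and overall calls, with those at promoters first, and by list membership. Etv4, Ltc4s, Esrp2, Cxcr4, Parp8, Th, Foxp1, Id3, Nkd1, Cpne5 and Ebf1 were singled out after their values were seen.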

Additional observations from a re-analysis of the deposited data

How the results depend on the processing

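The KO minus WT share at day 5 without XAV was 8.71 points and -6.47 points with an equal number of peaks per library, and 2.01 to 15.4 points with 1 line left out. The MUT minus WT share at day 5 (+XAV) was 2.68 points and -11.6 to 17.0 points with 1 line left out, negative without WT70 (-0.446) and without CM69 (-11.6). The count of regions called in both KO lines and neither WT line at day 5 (+XAV), 23, was 12 with the stronger 50% of peaks by total signal, 9 with equal peaks, 15 with equal peaks outside CM59 and 24 to 68 with 1 line left out (42 without WT72, 68 without KO1). At day 5 the count, 7, was 2, 0 and, with 1 line left out, 7 to 29 (13 without WT72, 29 without KO1). These settings for the counts were chosen after seeing the data. MUT against WT called 0 of all regions, 3 with equal peaks, 1 with the line as a random effect and 0 to 1 with 1 line left out, and none of the 224 regions under any setting. Ripply3 (-0.0927) and Pfkfb3 (-0.151) turned direction with equal peaks, without a call, and smaller coefficients with equal peaks were found at Calcr (-0.00194), Kcnip3 (0.124), Fosl2 (0.0710), Il15ra (0.0820), Prss12 (0.0516) and Rorb (-0.0665). Left-out lines moved Th (-0.0737 without WT70) and Rorb (-0.0630 without CM40), among others. XAV in MUT called 15 of all regions, 0 with the replicate block, 71 with equal peaks and 178 to 603 with 1 line left out. Of the 224 regions it called 0 in the main fit and with the line as a paired block, 2 without the filter, 4 with equal peaks and 11 to 18 with 1 line left out, where the lone MUT line is assumed to vary like the other groups. The median CpG ratio was 0.50 over the central kb. The causes were not tested. The precision of every share is limited by 2 lines per group and by peak numbers, since read depth is unknown.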
